A study of Mus musculus with 45 samples.

Results

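The CC chemokine genes Ccl2, Ccl7, Ccl12, Ccl8, Ccl3, Ccl4, Ccl5, Ccl6, Ccl9 and Ccl24 were followed in macrophages sorted from mouse skeletal muscle, as 10 of the 19752 genes that could be named on the arrays. They are the CC ligands of a list that was chosen with earlier results of these data known. Each was read from its only probe set with a single gene symbol, on 45 arrays in 18 groups. Values are log2 intensities, so that a difference of 1 is a 2-fold change. Testing was limited to genes with a group mean of log2 7.57 or more, the median of all values, in any group. All 10 members passed, and the lowest group mean of any of them was 7.85 (Ccl5), so none was tested only through a group in which it was high.

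The mice were male C57Bl6 animals with (DTR+) or without (DTR-) Foxp3.DTR, which puts a receptor for diphtheria toxin (DT) under the Foxp3 promoter of regulatory T cells; DT then removes those cells, and the DTR- animals are the controls. The genotype could not be checked on the arrays, since the transgene acts in other cells. Muscle was injured by injected cardiotoxin, except at day 0. The sorted cells were Ly6g- CD11b+ F4-80+ and were divided by class II (MHCII) into a positive and a negative subset. Day 0 held 2 DTR- arrays per subset from 10-week-old mice, and day 4 held 2 DTR- arrays per subset at 8 weeks. Day 1 held 2 arrays per genotype and subset at 8 weeks, all titled with 24 h of DT, DTR- included. At day 7, a 24 h set came from mice of 8 weeks; its MHCII+ subset had 2 DTR+ and 4 DTR- arrays, and its MHCII- subset 3 of each genotype. An 8 h set came from mice of 12 weeks; its MHCII+ subset had 3 arrays of each genotype, and its MHCII- subset 3 DTR+ and 4 DTR- arrays. The remaining day 7 arrays, called untimed here because their titles give no hours of DT, came from MHCII+ cells of 10-week-old mice, 2 of each genotype. SiglecF+ cells were gated out in the 8 h set and at days 1 and 4 only. DT label and, for some pairs, age or the gate therefore changed with the compared days and sets. Their part in such a difference cannot be told apart from it. The labels do not say whether the untimed day 7 mice received DT, from what moment the hours are counted, or whether each sample is another animal. The p-values therefore reflect the spread between these samples alone, which may be technical.

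CC chemokines are small secreted proteins that draw leukocytes along a gradient through G protein-coupled receptors. Ccl2, Ccl7 and Ccl12 act on CCR2, which brings Ly6C-high monocytes from blood into injured muscle. Ccl3, Ccl4 and Ccl5 attract T cells and monocytes, and Ccl3 and Ccl5 act on CCR1. Ccl6 and Ccl9 act mainly on CCR1, mouse Ccl8 on CCR8, and Ccl24 (eotaxin-2) on CCR3, the receptor of eosinophils. In regenerating muscle, early macrophages clear dead fibres, and macrophages with a repair programme predominate later.

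The arrays had median intensities of 174.7 to 203.7, and arrays of a group correlated at 0.933 to 0.997; the number of arrays limits the precision. A marker entry of the labels contradicted the titles on MHCII, but H2-Ab1 lay at 13.67 or above on all 24 arrays titled MHCII+ and at 12.45 or below on all 21 titled MHCII-. The summed intensity of 7 macrophage markers was 44250 to 57760 over the groups. In the day 0 MHCII- arrays, 8 neutrophil markers summed to 19840 in replicate 1 and 5316 in replicate 2, against 3844 to 3939 in day 0 MHCII+. In replicate 1 of the 8 h DTR+ MHCII+ group, 8 T and NK cell genes summed to 3554, against 751.4 and 783.2 in the other two. The part of these cells in the results was not tested.

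All members but Ccl24, on chromosome 5, lie on chromosome 11, in the gene order Ccl2, Ccl7, Ccl11, Ccl12, Ccl8 and in the order Ccl5, Ccl9, Ccl6, Ccl3, Ccl4. RefSeq promoter sequences (build GRCm38.p6) matched 5 of the 10 members. Those of Ccl12 and Ccl8 are shown because these neighbours moved in opposite directions between day 0 and day 1, and those of Ccl6 and Ccl9 because these neighbours followed each other most closely of all member pairs. Each is the 250 bases before the transcription start, 5′ to 3′ on the gene's strand, with capitals at motif matches. They lie at chr11:82101595-82101844 (Ccl12, plus strand), chr11:82114935-82115184 (Ccl8, plus), chr11:83593088-83593337 (Ccl6, minus) and chr11:83578637-83578886 (Ccl9, minus).
Ccl12: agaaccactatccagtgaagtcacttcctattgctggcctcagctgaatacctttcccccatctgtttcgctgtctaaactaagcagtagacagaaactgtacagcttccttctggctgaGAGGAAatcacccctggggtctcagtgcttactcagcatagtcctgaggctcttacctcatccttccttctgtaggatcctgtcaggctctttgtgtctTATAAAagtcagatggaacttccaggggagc
Ccl8: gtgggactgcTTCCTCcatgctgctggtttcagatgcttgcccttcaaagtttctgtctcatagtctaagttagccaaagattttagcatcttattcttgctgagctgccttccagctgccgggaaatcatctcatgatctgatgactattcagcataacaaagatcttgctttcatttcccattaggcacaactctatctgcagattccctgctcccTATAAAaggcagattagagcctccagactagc
Ccl6: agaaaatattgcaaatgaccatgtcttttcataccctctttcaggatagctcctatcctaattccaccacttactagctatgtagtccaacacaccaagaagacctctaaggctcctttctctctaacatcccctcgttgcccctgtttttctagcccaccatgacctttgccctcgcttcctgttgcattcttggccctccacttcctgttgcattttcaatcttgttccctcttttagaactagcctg
Ccl9: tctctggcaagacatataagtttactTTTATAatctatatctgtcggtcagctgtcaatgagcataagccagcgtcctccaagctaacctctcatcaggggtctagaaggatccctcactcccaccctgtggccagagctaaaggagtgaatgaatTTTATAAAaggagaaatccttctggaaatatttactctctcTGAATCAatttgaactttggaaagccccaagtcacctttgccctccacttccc
Short motifs were searched on both strands of these 250 bases and of those of 32851 promoters. The TATA box was read as TATAAA, which 12.4% of all promoters hold. The letters of AP-1 were TGANTCA, held by 6.7% of them. The core of PU.1, a myeloid transcription factor, was read as GAGGAA, held by 23.3%. The letters of the GAS element, which STAT factors bind, were TTCNNNGAA, held by 7.0%, and the kappaB motif was held by 1.2%. Ccl12 had TATAAA at -31 to -26 from the start and GAGGAA at -130 to -125. Ccl8 had TATAAA at -32 to -27 and GAGGAA on the other strand at -240 to -235. Aligned to each other, the sequences of Ccl12 and Ccl8 matched at 150 of the 250 bases, and those of Ccl6 and Ccl9 at 135 (54.0%). Over all pairs of the 5 promoters, the matches ran from 125 bases (Ccl12 with Ccl9) to the 150 of Ccl12 with Ccl8. Ccl12 with Ccl6, which are not neighbours, matched at 143 bases. The figure for Ccl6 and Ccl9 thus lay within the range of pairs that are not neighbours, and shows no special likeness of these 2. Gaps were allowed and unrelated promoters were not aligned, so none of these counts alone shows a likeness. The longest identical run of Ccl12 with Ccl8 was 8 bases. Ccl9 had TATAAA on the other strand at -224 to -219, overlapping matches on both strands from -94 to -87, and the AP-1 letters TGAATCA at -53 to -47, while none of the letters occurred in this window of Ccl6. These matches are descriptions of the sequence and not shown sites.

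A member was called where limma's Benjamini-Hochberg adjusted p over 11074 genes was under 0.05. Pooled over comparisons, 33 of 80 member values were called between days (41.2%, against 15.6% over all genes), 12 of 80 between subsets (15.0%, against 5.33%) and 6 of 70 between genotypes (8.57%, against 1.73%). The order of these shares is that of all genes. Between day 0 and day 1 in DTR- mice, 5 of 10 members were called in MHCII+ cells (35.6% of all tested genes) and 7 of 10 in MHCII- cells (25.6% of all). Between day 1 and day 4, 8 of 10 were called in MHCII+ (15.4% of all) and 8 of 10 in MHCII- (24.2% of all). Between day 4 and the 24 h day 7 set, 1 of 10 was called in MHCII+ (2.46%) and 0 of 10 in MHCII- (1.17%), where 3 had an unadjusted p under 0.05 (12.3% of all). Between day 4 and the 8 h set, 3 of 10 were called in MHCII+ (16.2%) and 1 of 10 in MHCII- (4.24%). The members' shares were above those of all genes from day 1 to day 4 and, in MHCII-, from day 0 to day 1. They were closer to them for day 0 to day 1 and for day 4 to the 8 h set in MHCII+. Since the members were chosen with earlier results of these data known, these shares are a description and not a test of the list.

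**Figure D1:**
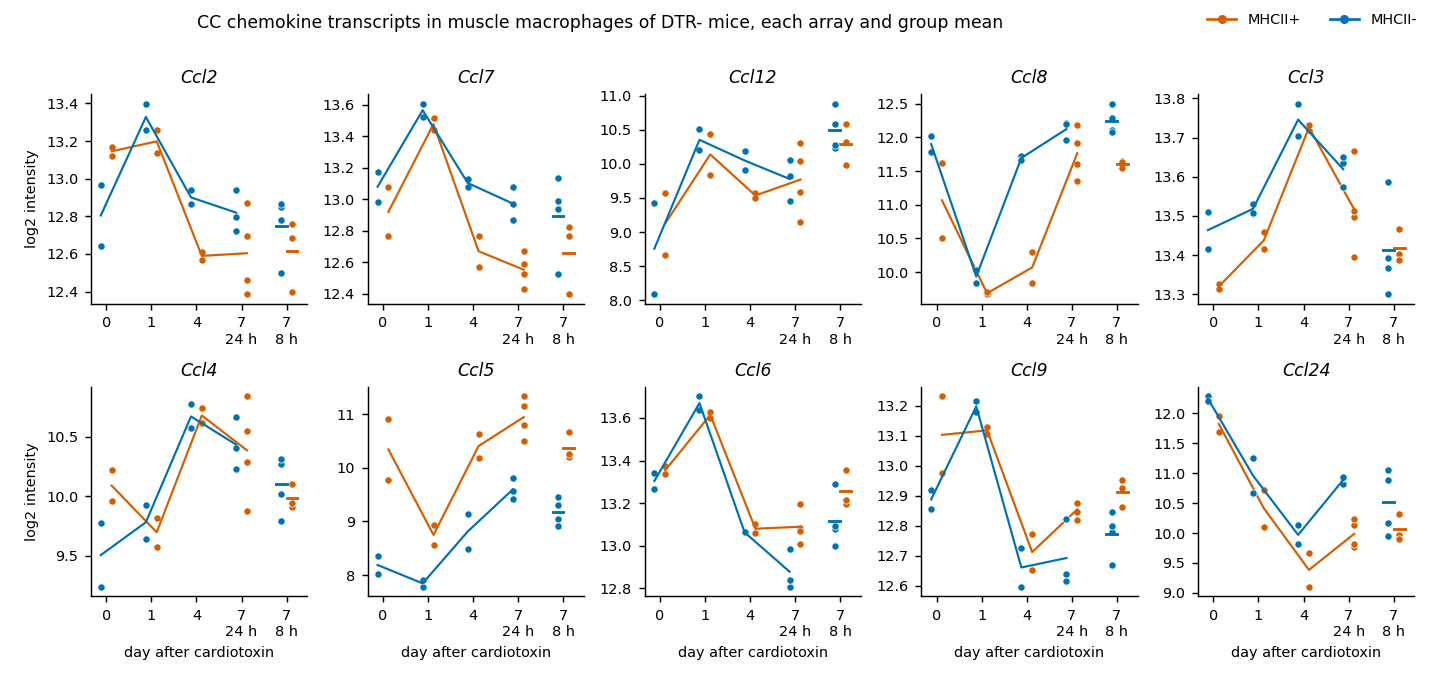
Log2 intensity (y axis) of the 10 members in DTR- macrophages against day after cardiotoxin (x axis), day 7 shown for the 24 h and the 8 h set. There is a point per array, with lines or bars at group means, MHCII+ in orange and MHCII- in blue. Groups joined by lines also differ in DT label. Those of day 0 and day 1 differ in age and gate as well, and those of day 4 and the 24 h set in gate. Ccl2, Ccl7, Ccl6 and Ccl9 peak at day 1 in MHCII- cells, Ccl8 is lowest at day 1, and Ccl5 is higher in MHCII+ cells throughout.

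Of the CCR2 ligands, Ccl7 rose at day 1 and fell by day 4 in both subsets, Ccl2 did so in MHCII- cells, and Ccl12 rose in MHCII- cells. Ccl7 lay at 13.18 and 12.98 in the day 0 MHCII- arrays, 13.61 and 13.53 at day 1 and 13.13 and 13.08 at day 4. The day 1 arrays were above all others, without overlap. The change was 0.49 ± 0.14 (SE) from day 0 to day 1 (adjusted p = 0.0112) and -0.46 ± 0.14 from day 1 to day 4 (adjusted p = 0.017). In MHCII+ cells Ccl7 lay at 13.07 and 12.76, then 13.51 and 13.44, then 12.77 and 12.57, a rise of 0.56 ± 0.14 (adjusted p = 0.00295) and a change of -0.81 ± 0.14 (adjusted p = 0.000149). Ccl2, the best known monocyte attractant, lay at 12.97 and 12.64 in day 0 MHCII- arrays, 13.40 and 13.26 at day 1 and 12.94 and 12.86 at day 4. Again both day 1 arrays were the highest, with a rise of 0.52 ± 0.16 (adjusted p = 0.0135) and a change of -0.43 ± 0.16 (adjusted p = 0.0475). In MHCII+ cells Ccl2 was already at 13.12 and 13.17 at day 0 and at 13.26 and 13.14 at day 1 (0.05 ± 0.16, adjusted p = 0.822), and it fell to 12.61 and 12.57 at day 4 (-0.61 ± 0.16, adjusted p = 0.00726). At day 7 the DTR- arrays of Ccl2 spanned 12.39 to 12.94 and those of Ccl7 12.40 to 13.13, and neither gene was called against day 4 in any of the 4 comparisons.

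Ccl12 lay at 9.42 and 8.09 in day 0 MHCII- arrays and at 10.51 and 10.20 at day 1, a rise of 1.599 ± 0.458 (3.03-fold, adjusted p = 0.00876). The day 0 arrays stood far apart, and without replicate 2 the rise was 0.93 (adjusted p = 0.245); without day 1 replicate 1 it was 1.45 (adjusted p = 0.0802). In MHCII+ cells the 9.58 and 8.67 of day 0 and the 10.45 and 9.83 of day 1 did not overlap either (1.02 ± 0.46, adjusted p = 0.0817). Day 4 lay between, at 10.19 and 9.91 in MHCII- and 9.57 and 9.50 in MHCII+ cells. Several of the smaller changes were lost with an array left out. Without day 0 MHCII- replicate 2, the rise of Ccl2 was 0.36 (adjusted p = 0.204) and that of Ccl7 0.39 (adjusted p = 0.126). Without day 1 MHCII- replicate 1, they were 0.45 (adjusted p = 0.121) and 0.45 (adjusted p = 0.0871). Without day 0 MHCII+ replicate 2, the rise of Ccl7 in that subset was 0.40 (adjusted p = 0.0943). The falls of Ccl2 and Ccl7 in MHCII- cells lost their call without any 1 of the 4 arrays (adjusted p 0.0912 to 0.247 and 0.0568 to 0.114). The fall of Ccl2 in MHCII+ cells was lost without day 1 replicate 1 (-0.55, adjusted p = 0.0906) or day 4 replicate 2 (-0.63, adjusted p = 0.0534). With the replicate block the fall of Ccl2 in MHCII- cells had an adjusted p of 0.0512, and without the filter, without the intensity trend or with arrays quantile-normalized again 0.0578 to 0.0941.

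Ccl6 and Ccl9, the CCR1 ligands that mouse myeloid cells make in quantity, were high on every array and followed the same course in MHCII- cells. Ccl6 lay at 13.27 and 13.34 at day 0, 13.70 and 13.64 at day 1 and 13.06 and 13.06 at day 4. It rose by 0.37 ± 0.09 (adjusted p = 0.00365) and fell by 0.61 ± 0.09 on the log2 scale (adjusted p = 8.11e-06), and no array of a day overlapped another day. In MHCII+ cells it went from 13.37 and 13.34 to 13.63 and 13.60 and then 13.06 and 13.10, with changes of 0.26 ± 0.09 (adjusted p = 0.0304) and -0.53 ± 0.09 (adjusted p = 0.000129). Ccl9 lay at 12.86 and 12.92 in day 0 MHCII- arrays, 13.22 and 13.18 at day 1 and 12.72 and 12.60 at day 4. Its rise was 0.31 ± 0.09 (adjusted p = 0.00604) and the change by day 4 was -0.54 ± 0.09 (adjusted p = 1.05e-05). In MHCII+ cells Ccl9 lay at 12.97 and 13.23 at day 0 and at 13.13 and 13.11 at day 1, with overlap and no call, and fell to 12.65 and 12.77 at day 4 (-0.41 ± 0.09, adjusted p = 0.00094). All 4 falls were kept without any 1 array. The rise of Ccl6 in MHCII+ was lost without any 1 of the 4 arrays (adjusted p 0.0708 to 0.146), without the filter (adjusted p = 0.0641) and without the intensity trend (adjusted p = 0.0551). In MHCII- cells its rise was lost without day 0 replicate 1 (0.33, adjusted p = 0.0521), as was that of Ccl9 (0.28, adjusted p = 0.0722), and that of Ccl9 also without day 1 replicate 1 (0.29, adjusted p = 0.0558).

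Ccl8 and Ccl24 went the other way at day 1. Ccl8 lay at 12.02 and 11.79 in day 0 MHCII- arrays and at 10.04 and 9.83 at day 1, a 3.91-fold fall (-1.97 ± 0.24, adjusted p = 1.37e-07). At day 4 it was back at 11.73 and 11.66 (1.76 ± 0.24, adjusted p = 1.41e-06), and at day 7 its MHCII- DTR- arrays spanned 11.96 to 12.50. In MHCII+ cells Ccl8 fell from 11.62 and 10.51 to 9.67 and 9.70 (-1.38 ± 0.24, adjusted p = 5.13e-05), a change of -0.82 without day 0 replicate 1. Here it stayed low at day 4 (9.85 and 10.29; 0.38 ± 0.24, adjusted p = 0.324) and rose only by day 7. It reached 11.35 to 12.19 in the 24 h set (1.70 ± 0.21, adjusted p = 1.72e-05) and 11.54 to 11.65 in the 8 h set (1.54 ± 0.22, adjusted p = 4.89e-05). The return of Ccl8 thus came between day 1 and day 4 in MHCII- cells and between day 4 and day 7 in MHCII+ cells. The change in its subset difference from day 1 to day 4 was -1.38 ± 0.35 (adjusted p = 0.0365, 1.23% of all genes called), and this was the only call among the 80 planned differences of effects. It was lost without any 1 of 7 of its 8 arrays (-1.15 to -1.48, adjusted p 0.0937 to 0.277) and kept without day 4 MHCII+ replicate 3; without the filter on dim genes its adjusted p was 0.0553.

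Ccl24 lay at 12.28 and 12.21 in day 0 MHCII- arrays, 11.25 and 10.67 at day 1 and 10.13 and 9.81 at day 4. It fell at both steps without overlap, by 1.29 ± 0.29 (adjusted p = 0.000988) and then by 0.99 ± 0.29 (adjusted p = 0.0106) on the log2 scale. In MHCII+ cells it went from 11.96 and 11.68 to 10.73 and 10.10 and to 9.10 and 9.67, with changes of -1.41 ± 0.29 (adjusted p = 0.000289) and -1.03 ± 0.29 (adjusted p = 0.0125). The first falls were kept without any 1 array. The second was lost in MHCII+ without day 1 replicate 1 (-0.72, adjusted p = 0.246) or day 4 replicate 2 (-0.75, adjusted p = 0.258). In MHCII- it was lost without day 1 replicate 1 (-0.70, adjusted p = 0.189) or day 4 replicate 2 (-0.83, adjusted p = 0.12). At day 7 the DTR- arrays of Ccl24 spanned 9.76 to 10.45 in MHCII+ and 9.95 to 11.05 in MHCII- cells, and no step from day 4 was called. With array quality weights limma called the step to the 24 h set in MHCII- cells (0.91, adjusted p = 0.000168, 36.1% of all genes called).

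Of the T cell and monocyte attractants Ccl3, Ccl4 and Ccl5, Ccl4 and Ccl5 rose between day 1 and day 4 in both subsets. Ccl4 lay at 9.92 and 9.64 in MHCII- and 9.82 and 9.57 in MHCII+ arrays at day 1, and at 10.77 and 10.57 and 10.74 and 10.61 at day 4. The rises were 0.89 ± 0.25 (adjusted p = 0.00812) and 0.98 ± 0.25 (adjusted p = 0.00574). In the 8 h day 7 set Ccl4 was at 9.90, 10.10 and 9.94 in MHCII+ arrays, a change of -0.70 ± 0.23 (adjusted p = 0.034). Ccl5 lay at 10.91 and 9.78 in day 0 MHCII+ arrays, 8.94 and 8.56 at day 1 and 10.19 and 10.63 at day 4. It fell 3.02-fold (-1.595 ± 0.300, adjusted p = 0.000114; -1.03 without day 0 replicate 1) and rose 3.16-fold (1.66 ± 0.30, adjusted p = 0.000183). In MHCII- cells it lay at 8.35 and 8.02, then 7.78 and 7.91, then 9.14 and 8.49, and only the rise was called (0.97 ± 0.30, adjusted p = 0.0165). Ccl3, a CCR1 ligand, stayed between 12.99 and 13.79 on all 45 arrays. It rose by 0.29 ± 0.09 from day 1 to day 4 in MHCII+ cells (13.46 and 13.41 to 13.72 and 13.73, adjusted p = 0.0289). In the 8 h set it was lower than at day 4 in both subsets, by -0.31 ± 0.08 in MHCII+ (adjusted p = 0.0124) and -0.33 ± 0.08 in MHCII- (adjusted p = 0.0137).

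The rise of Ccl3 was lost without any 1 of the 4 arrays (adjusted p 0.0934 to 0.159), and it was 0.23 with arrays centred on their medians (adjusted p = 0.13); without the filter its adjusted p was 0.0685 and without the intensity trend 0.0602. A fit on the compared groups only gave the fall of Ccl3 in MHCII- cells an adjusted p of 0.101. The falls of Ccl3 were lost without either day 4 array (adjusted p 0.0611 and 0.103 in MHCII+, 0.105 and 0.286 in MHCII-). The rise of Ccl4 was lost without replicate 2 of day 1 (0.86, adjusted p = 0.0806) or day 4 (0.92, adjusted p = 0.0767) in MHCII+. In MHCII- it was lost without day 1 replicate 2 (0.75, adjusted p = 0.106) or day 4 replicate 1 (0.79, adjusted p = 0.0846). The fall of Ccl4 was lost in 4 of 5 cases (adjusted p 0.0752 to 0.233; kept without 8 h replicate 2) and with the replicate block (-0.66, adjusted p = 0.107). The rise of Ccl5 in MHCII- was lost without day 4 replicate 1 (0.64, adjusted p = 0.26), day 1 replicate 1 (0.90, adjusted p = 0.105) or day 1 replicate 2 (1.03, adjusted p = 0.061), while its changes in MHCII+ were kept.

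Other genes of the chemokine system and of other cells moved over the same days. Of all 11074 tested genes, 2063 were called as rising and 1884 as falling from day 0 to day 1 in MHCII+. In MHCII- these were 1041 and 1794. From day 1 to day 4, 843 were called as falling in MHCII+ and 810 in MHCII-. Of 4 monocyte genes, 3 in MHCII+ and 4 in MHCII- rose from day 0 to day 1, and 2 and 3 fell from day 1 to day 4; their summed intensity in DTR- arrays was 1229 to 2048 at day 0, 8428 to 17810 at day 1 and 2799 to 6132 at day 4. Of 15 immediate-early and heat-shock genes, 7 fell in MHCII+ and 6 fell and 1 rose in MHCII- from day 0 to day 1. In MHCII- cells 7 of 8 neutrophil genes also fell and 1 rose at that step. Of 4 dendritic cell genes, 4 fell in MHCII+ and 2 in MHCII- from day 0 to day 1, and their list's summed intensity went from 12700 to 14790 down to 6448 to 7010 in MHCII+ and from 3893 to 4758 down to 623.1 to 657.3 in MHCII-. In bulk samples of sorted cells, fewer cells of a type and less RNA per cell cannot be told apart, and the part of these lists in the chemokine changes was not tested. Ccr1, a receptor of Ccl3, Ccl5, Ccl6 and Ccl9, rose at day 1 in MHCII+ (0.70 ± 0.23, adjusted p = 0.0183) and MHCII- cells (1.03 ± 0.23, adjusted p = 0.00103) and fell again by day 4 in MHCII- (-0.98 ± 0.23, adjusted p = 0.00176). Ccr2 rose at day 1 in MHCII- cells (1.28 ± 0.37, adjusted p = 0.00911), from 11.29 and 11.66 to 12.73 and 12.78. Ccrl2, an atypical receptor that binds chemerin, fell at day 1 (-0.52 ± 0.18 in MHCII+, adjusted p = 0.0205; -0.61 ± 0.18 in MHCII-, adjusted p = 0.00922). It then rose at day 4 (1.03 ± 0.18, adjusted p = 8.93e-05; 1.26 ± 0.18, adjusted p = 1.55e-06). Ccl26, the gene next to Ccl24 on chromosome 5, fell at day 1 as Ccl24 did (-1.14 ± 0.21 in MHCII+, adjusted p = 7.28e-05; -1.61 ± 0.21 in MHCII-, adjusted p = 2.59e-07).

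The subsets were compared at each day. In DTR- cells 2 of 10 members were called at day 0 (19.0% of all genes), 0 of 10 at day 1 (2.45%; 1 at an unadjusted p under 0.05, against 7.96% of all) and 2 of 10 at day 4 (2.12%). At day 7, 3 of 10 were called in the 24 h set (5.23%) and 1 of 10 in the 8 h set (2.21%). In DTR+ cells the counts were 0 of 10 at day 1 (2.26%; 2 unadjusted, against 6.97%), 1 of 10 in the 24 h set (1.37%) and 3 of 10 in the 8 h set (7.98%). The calls were for Ccl5, higher in MHCII+, and for Ccl8, Ccl24, Ccl7 and Ccl3, lower in MHCII+.

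**Figure D2:**
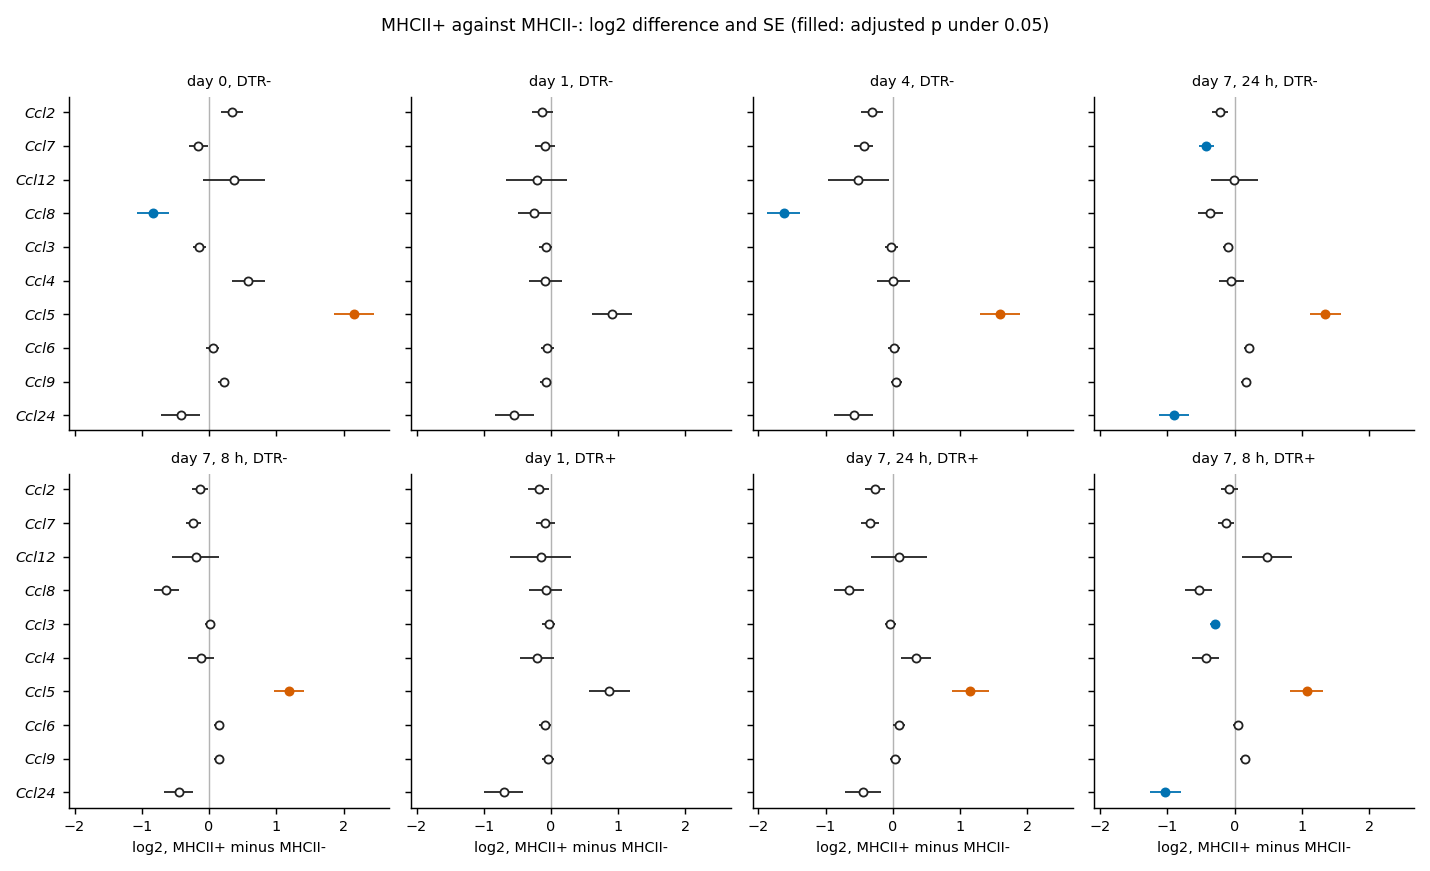
Log2 difference, MHCII+ minus MHCII- (x axis), with its SE, of the 10 members (y axis) in 8 comparisons; filled points passed an adjusted p of 0.05, orange higher and blue lower in MHCII+, and open points did not pass. Ccl5 lies to the right of 0 and Ccl8 and Ccl24 to the left of 0 in all 8 panels.

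Ccl5 was higher in MHCII+ cells in 8 of 8 comparisons, and its arrays did not overlap in any of them. The difference was 2.16 ± 0.30 at day 0 (4.46-fold, adjusted p = 1.78e-06) and 1.59 ± 0.30 at day 4 (3.02-fold, adjusted p = 0.00106). At day 1 it was smaller and was not called, at 0.91 ± 0.30 in DTR- (adjusted p = 0.142) and 0.87 ± 0.30 in DTR+ cells (adjusted p = 0.184). With array quality weights limma called both (adjusted p = 0.000757 and 0.00135, with 11.7% and 9.78% of all genes called). In the 24 h set the DTR- arrays lay at 10.50 to 11.33 in MHCII+ and 9.43 to 9.81 in MHCII- (1.35 ± 0.23, adjusted p = 0.000224). In the 8 h set they lay at 10.19 to 10.66 and 8.92 to 9.46 (1.19 ± 0.23, adjusted p = 0.00167). The DTR+ differences were 1.15 ± 0.27 at 24 h (adjusted p = 0.017) and 1.07 ± 0.25 at 8 h (adjusted p = 0.00535). The change of the subset difference from day 0 to day 1 was -1.25 ± 0.42 (adjusted p = 0.0905), and limma called 0 of 10 members there (4.66% of all genes; 3 unadjusted, against 17.7%). From day 4 to day 7 the subset difference changed with a call for 0 of 10 members in the 24 h set (0.0452%; 1 unadjusted, against 3.21%) and in the 8 h set (0.0271%; 1 unadjusted, against 2.3%). The call of Ccl5 was kept without any 1 array at day 0 and in both DTR- day 7 sets. It was lost at day 4 without MHCII+ replicate 3 (1.37, adjusted p = 0.0539) or MHCII- replicate 2 (1.27, adjusted p = 0.115). In DTR+ cells it was lost at 8 h without MHCII- replicate 5 (0.85, adjusted p = 0.0602). At 24 h it was lost without MHCII+ replicate 1 (0.99, adjusted p = 0.275), MHCII+ replicate 5 (1.32, adjusted p = 0.0512) or MHCII- replicate 3 (1.02, adjusted p = 0.0633). A fit on the compared groups only lost both DTR+ calls (adjusted p = 0.201 at 24 h and 0.0993 at 8 h).

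Ccl8 was lower in MHCII+ cells in 8 of 8 comparisons and was called in 2. At day 4 its MHCII+ arrays lay at 9.85 and 10.29 and its MHCII- arrays at 11.73 and 11.66, a 3.09-fold difference (-1.63 ± 0.24, adjusted p = 4.56e-05) kept without any 1 array. At day 0 the difference of -0.84 ± 0.24 (adjusted p = 0.0141) rested on MHCII+ replicate 2, at 10.51 against 11.62 for replicate 1. Without it the difference was -0.28 (adjusted p = 0.615), without MHCII+ replicate 1 it was -1.39, and without MHCII- replicate 1 it was -0.72 (adjusted p = 0.12); a fit on the compared groups only gave an adjusted p of 0.158. Ccl24 was also lower in MHCII+ cells in 8 of 8 comparisons, by 0.42 to 1.03, and was called in 2. In the 24 h DTR- arrays it lay at 9.76 to 10.23 in MHCII+ and 10.82 to 10.93 in MHCII- (-0.90 ± 0.22, adjusted p = 0.0112). In the 8 h DTR+ arrays it lay at 9.45, 10.35 and 10.02 and at 10.97, 11.16 and 10.79 (-1.03 ± 0.24, adjusted p = 0.00525). The first was lost without MHCII+ replicate 3 (-0.83, adjusted p = 0.0546) or MHCII- replicate 2 (-0.89, adjusted p = 0.0545). The second was lost without MHCII+ replicate 1 (-0.79, adjusted p = 0.0792), the array with the raised T and NK cell genes, with array quality weights (-0.71, adjusted p = 0.13) and in a fit on the compared groups only (adjusted p = 0.0828). Ccl7 was lower in MHCII+ cells of the 24 h DTR- group (12.43 to 12.67 against 12.87 to 13.08; -0.42 ± 0.11, adjusted p = 0.0192), a call lost without any 1 of MHCII+ replicate 3, MHCII- replicate 2 and MHCII- replicate 3 (adjusted p 0.0603 to 0.0988). Ccl3 was lower in MHCII+ cells of the 8 h DTR+ group (-0.29 ± 0.08, adjusted p = 0.0136), by -0.19 without MHCII+ replicate 1 (adjusted p = 0.175) and by -0.26 without MHCII- replicate 5 (adjusted p = 0.0672); array quality weights gave -0.17 (adjusted p = 0.176) and a fit on the compared groups only an adjusted p of 0.207.

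Ccl2, Ccl12, Ccl4, Ccl6 and Ccl9 were called in no subset comparison. Markers of dendritic cells differed with the subset: 1 to 3 of 4 tested were higher in MHCII+ in each of the 8 comparisons. Of all genes, 1.37% to 19.0% were called there in either direction. The summed intensity of the dendritic cell markers in DTR- arrays was 12700 to 14790 against 3893 to 4758 at day 0 and 6397 to 7818 against 762.7 to 948.8 at day 4. Ccr7, the receptor that takes dendritic cells to lymph nodes, was higher in MHCII+ by 3.81 ± 0.42 at day 0 (adjusted p = 1.91e-08) and 2.73 ± 0.42 at day 4 (adjusted p = 6.2e-05). Ccl17 and Ccl22, CCR4 ligands typical of dendritic cells, were higher in MHCII+ in all 8 comparisons, by 1.82 to 4.88 and 1.80 to 3.19. Ccr2 was higher in MHCII+ at day 0 (1.13 ± 0.37, adjusted p = 0.0272) and in 3 of the 4 timed day 7 comparisons. Ccr3 was lower in MHCII+ at day 0 (-1.71 ± 0.17, adjusted p = 2.61e-09), where 5 eosinophil genes summed to 514.6 to 567.9 in MHCII+ and 691.3 to 814 in MHCII-. The part of such cells in the subset differences of the members was not tested.

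The genotype comparison sets mice with the receptor against mice without it. In the untimed set, whose titles give no DT time, the labels leave unsaid whether DT was given. No member was called in either subset of the 24 h day 7 set (0.0542% of all genes in MHCII+, 0.00903% in MHCII-), the 8 h set (0.488% and 0.0181%) or day 1 (0% and 0%). In limma at an unadjusted p under 0.05 the counts in MHCII+ and MHCII- were 2 and 3 of 10 in the 24 h set (6.47% and 6.47% of all genes), 3 and 5 of 10 in the 8 h set (18.5% and 4.39%) and 0 and 0 of 10 at day 1 (0.226% and 1.39%). With array quality weights 5 members were called in the 24 h MHCII- comparison (37.5% of all genes) and 6 in the 8 h MHCII- comparison (34.1%). In the untimed day 7 set 6 of 10 members were called, against 11.5% of all genes, with 5 higher (5.32% of all genes) and 1 lower (6.20%) in DTR+.

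**Figure D3:**
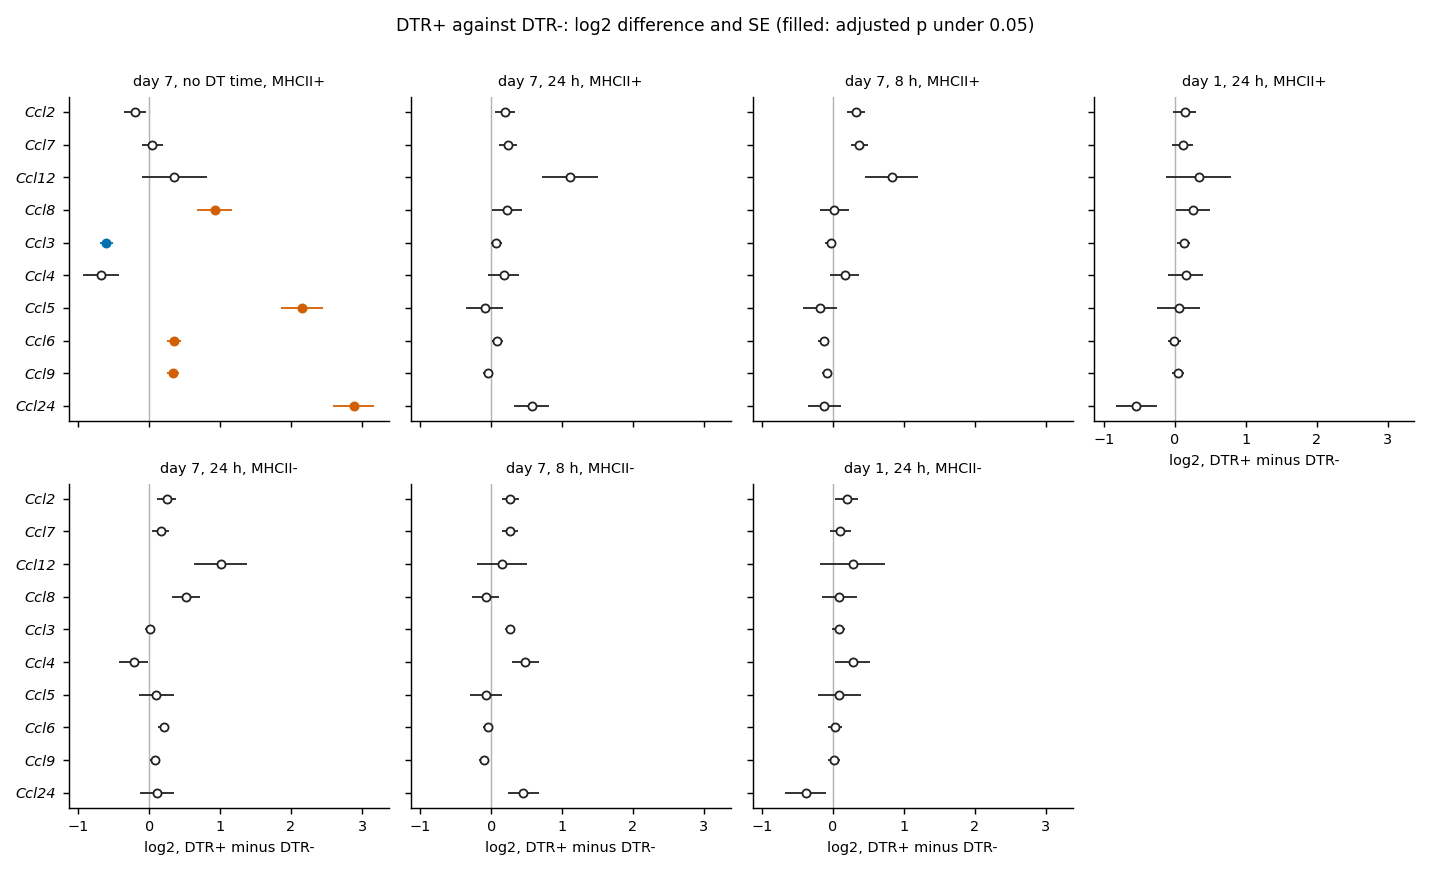
Log2 difference, DTR+ minus DTR- (x axis), with its SE, of the 10 members (y axis) in 7 comparisons; filled points passed an adjusted p of 0.05, orange higher and blue lower in DTR+, and open points did not pass. The only filled points are the 6 of the untimed day 7 set, led by Ccl24 at 2.89 and Ccl5 at 2.15.

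In the untimed set Ccl24 lay at 10.45 and 10.02 in DTR- and at 13.39 and 12.85 in DTR+ arrays, a 7.39-fold rise (2.89 ± 0.29, adjusted p = 3.46e-09). Both DTR+ arrays were above every other array of the series for this gene, day 0 included. In the 24 h MHCII+ arrays Ccl24 lay at 10.64 and 10.46 in DTR+ and 9.76 to 10.23 in DTR- (0.57 ± 0.25, adjusted p = 0.762), and in the 8 h arrays at 9.45 to 10.35 and 9.89 to 10.31 (-0.12 ± 0.24, adjusted p = 0.797). Ccl5 lay at 10.73 and 10.54 in untimed DTR- and 12.64 and 12.94 in DTR+ arrays, a 4.45-fold rise (2.15 ± 0.30, adjusted p = 2.44e-06). These too were the highest Ccl5 arrays of the series, and in the timed MHCII+ sets the DTR+ arrays lay within or below the range of DTR- (24 h, -0.09 ± 0.26; 8 h, -0.18 ± 0.25). Ccl8 lay at 12.10 and 12.15 in untimed DTR- and 13.01 and 13.07 in DTR+ arrays (0.92 ± 0.24, adjusted p = 0.00958). The 2 arrays of a group were close, but the call of Ccl8 was lost without any 1 of the 4 arrays (0.89 to 0.95, adjusted p 0.0551 to 0.0855). The calls of Ccl24 and Ccl5 were kept.

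Ccl6 (13.15 and 13.07 to 13.49 and 13.41; 0.35 ± 0.09, adjusted p = 0.0116) and Ccl9 (12.68 and 12.67 to 13.05 and 12.98; 0.34 ± 0.09, adjusted p = 0.00572) were also higher in untimed DTR+ arrays. Ccl6 was lost without DTR+ replicate 1 (0.31, adjusted p = 0.156) or DTR- replicate 2 (0.31, adjusted p = 0.127), and Ccl9 without DTR+ replicate 1 (0.30, adjusted p = 0.104) or DTR- replicate 2 (0.33, adjusted p = 0.0514). Ccl3 fell, from 13.73 and 13.72 to 12.99 and 13.25 (-0.61 ± 0.09, adjusted p = 8.84e-06), and this was kept without any 1 array. Its group mean there was the lowest of the 18 groups. Ccl4, the neighbour and close relative of Ccl3, lay at 10.81 and 10.63 in DTR- and 9.93 and 10.15 in DTR+ (-0.68 ± 0.25, adjusted p = 0.0745), which did not pass. The CCR2 ligands were not called: Ccl2 differed by -0.20 ± 0.16, Ccl7 by 0.04 ± 0.14 and Ccl12 by 0.35 ± 0.46.

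**Figure D4:**
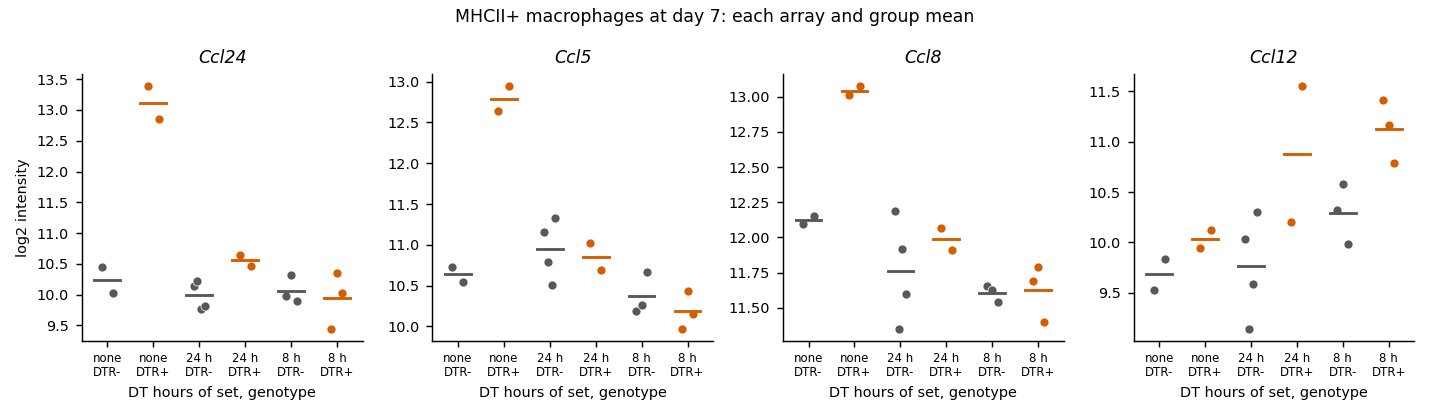
Log2 intensity (y axis) of Ccl24, Ccl5, Ccl8 and Ccl12 in MHCII+ macrophages at day 7, with a point per array and a bar at the group mean, by DT hours of the set (none for the untimed set) and genotype (x axis), DTR- in grey and DTR+ in orange. For Ccl24, Ccl5 and Ccl8 the untimed DTR+ arrays lie above all others shown, while for Ccl12 the DTR+ means are higher in each set with overlap in the 24 h set.

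Ccl12 had the largest log2 differences of the members in both subsets of the 24 h day 7 set and in 8 h MHCII+ cells. None was called, and the spread of Ccl12 within groups was the widest of the members (pooled SD 0.498). In the 24 h set it lay at 10.20 and 11.55 in DTR+ and 9.14 to 10.31 in DTR- MHCII+ arrays (1.11 ± 0.40, 95% interval 0.30 to 1.92, adjusted p = 0.742). In MHCII- it lay at 10.02, 10.42 and 11.90 and at 9.45, 9.82 and 10.06 (1.01 ± 0.37, 95% interval 0.24 to 1.77, adjusted p = 0.718). In each subset 1 DTR+ array was far above the rest and the groups overlapped. In MHCII- this was replicate 3, where the immediate-early and heat-shock genes summed to 53380, against 77720 and 74240 in the other DTR+ arrays. Its dendritic cell genes summed to 2000 against 1222 and 1296, and its T and NK cell genes to 819.6 against 568.4 and 627.1. Its neutrophil genes, at 3335, lay between the 2974 and 3407 of the others. The part of this in the difference was not tested. In the 8 h MHCII+ arrays the groups did not overlap, at 11.41, 11.17 and 10.79 against 10.32, 10.59 and 9.98 (0.83 ± 0.37, 95% interval 0.07 to 1.59, adjusted p = 0.236). In the 8 h MHCII- arrays they did (0.15 ± 0.35, 95% interval -0.56 to 0.86, adjusted p = 0.998). Ccl2 was higher in DTR+ in all 4 timed day 7 comparisons by 0.20 to 0.33, also with no call (adjusted p 0.188 to 0.998). Ccl7, like Ccl12, was above 0 in all 7 genotype comparisons. Other members also lay apart with no call. Examples in DTR+ against DTR- were Ccl8 in 24 h MHCII- (12.405 to 12.786 against 11.963 to 12.208) and Ccl7 in 8 h MHCII+ (12.96 to 13.14 against 12.40 to 12.82). Another was Ccl4 in 8 h MHCII- (10.47 to 10.74 against 9.79 to 10.31). The share of all genes that lay apart in the same comparisons was not counted, so nothing about the members follows from these ranges.

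The effect of genotype was also compared between sets in MHCII+ cells, tests that were added after seeing the data and that share the untimed arrays. Against the 24 h set 4 of 10 members differed (7.52% of all genes), and against the 8 h set 5 of 10 (7.90%). The effect on Ccl24 was larger in the untimed set by 2.32 ± 0.38 (adjusted p = 7.48e-05) and 3.01 ± 0.37 (adjusted p = 6.2e-07), and that on Ccl5 by 2.25 ± 0.40 (adjusted p = 0.000207) and 2.34 ± 0.39 (adjusted p = 8.22e-05). That on Ccl3 was lower by -0.68 ± 0.12 (adjusted p = 0.000224) and -0.58 ± 0.12 (adjusted p = 0.00124). For Ccl8 the difference was 0.70 ± 0.32 (adjusted p = 0.213) and 0.90 ± 0.32 (adjusted p = 0.075), which did not pass. Within the timed day 7 sets no member's genotype effect was called as different between the subsets or between 24 h and 8 h by limma (0 of 10 in each of 4 comparisons, 0% of all genes). At an unadjusted p under 0.05 the counts were 0 at 24 h and 1 at 8 h between the subsets (9.14% and 7.73% of all genes) and 0 in MHCII+ and 4 in MHCII- between the times (11.9% and 4.86%). With array quality weights 6 were called between the times in MHCII- cells (38.4% of all genes).

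Other genes moved in the untimed set, where 5.32% of all genes were called higher and 6.20% lower in DTR+. Of 4 tested monocyte genes, 3 were higher in DTR+ (median 2.36): Chil3 by 6.74 ± 0.55, F10 by 3.098 ± 0.470 and Plac8 by 1.61 ± 0.41 (adjusted p = 3.44e-11, 9.8e-06 and 0.0064), while Vcan differed by 0.85 ± 0.70. The list summed to 8379 and 12700 in DTR+ against 994.5 and 1123 in DTR- arrays. Chil3, which moved most, is part of this sum, so the sum is not a measure of monocytes alone. The 5 eosinophil genes summed to 760.5 and 806 against 576.2 and 566.3, and the 8 T and NK cell genes to 762.6 and 823.7 against 677.2 and 730.2. Dendritic cell genes summed to 1229 and 1469 in DTR+, below the 2540 and 2562 of DTR-, and 4 of 5 muscle genes were lower. The 7 macrophage genes summed to 48890 and 51400 in DTR+, below the 56840 and 57300 of DTR-, with 2 of 7 called lower. The 15 immediate-early and heat-shock genes summed to 74350 and 75740, below 88770 and 93660. Of them 1 of 15 was called lower, near the share of all genes. The part of these lists in the rise of Ccl24, Ccl5, Ccl8, Ccl6 and Ccl9 and the fall of Ccl3 was not tested. Of the receptors, Ccr1 rose in the untimed DTR+ arrays, from 9.4 and 9.61 to 10.62 and 11.11 (1.36 ± 0.23, adjusted p = 5.82e-05), and Ccr2, Ccr3, Ccr7 and Ccrl2 were not called. Ccl17 (4.23 ± 0.30, adjusted p = 1.11e-12) and Ccl22 (2.81 ± 0.22, adjusted p = 2.49e-11) rose as well, and Ccl17 was the only CC ligand called in a timed set (24 h MHCII+, 1.49 ± 0.26, adjusted p = 0.00969). Of the listed receptors with a single-symbol probe set, Ccr1, Ccr2, Ccr3 and Ccr7 passed the filter, as did Ccrl2 of 5 atypical receptors.

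Over the 18 group means, Ccl5 spanned 30.8-fold, Ccl24 13.3-fold and Ccl8 10.2-fold, and each was highest in the untimed DTR+ group. Ccl12 spanned 5.17-fold, from day 0 MHCII- (8.75) to 8 h DTR+ MHCII+ (11.12). Ccl4 spanned 2.32-fold, Ccl2 2.22-fold, Ccl7 2.17-fold, Ccl6 1.76-fold, Ccl3 1.55-fold and Ccl9 1.47-fold. Of these, Ccl2, Ccl7, Ccl6, Ccl3 and Ccl9 lay at 12.32 or more on every array, and the highest value of any probe set was 14.59. Whether their signal was compressed near the top of the scale was not tested, so their smaller spans need not mean steadier expression. The highest mean lay in the day 1 DTR+ MHCII- group for Ccl2 (13.52), Ccl7 (13.67), Ccl6 (13.70) and Ccl9 (13.21). In the order of the 18 means most neighbours overlapped: of 17 neighbouring pairs, 5 were separate for Ccl5 and Ccl24, 4 for Ccl8 and Ccl6, 3 for Ccl7, 2 for Ccl2, Ccl3 and Ccl9, and 0 for Ccl12 and Ccl4.

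**Figure D5:**
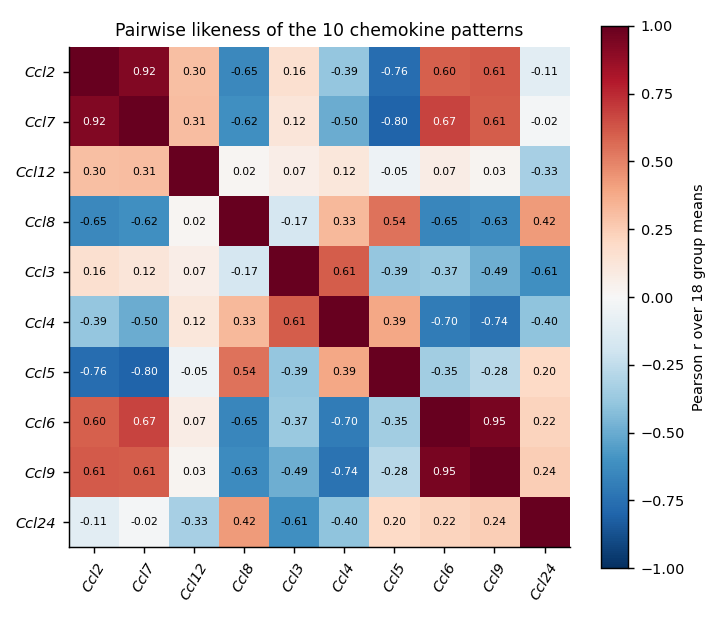
Pearson correlation between the members (both axes) over the 18 group means, from -1 (blue) to 1 (red), with the value in each cell. Ccl6 with Ccl9 (0.95) and Ccl2 with Ccl7 (0.92) are the closest pairs, and Ccl5 is opposed to Ccl7 (-0.80) and Ccl2 (-0.76).

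As a description, the patterns were compared over these group means, which share arrays and normalization. Ccl6 and Ccl9 correlated at 0.946 and Ccl2 and Ccl7 at 0.923, and without the untimed groups (16 means) at 0.951 and 0.929. These genes were also alike across the pairs. Ccl7 with Ccl6 reached 0.673, Ccl2 with Ccl9 0.610, Ccl7 with Ccl9 0.608 and Ccl2 with Ccl6 0.597. Without the untimed groups these were 0.754, 0.739, 0.645 and 0.771. Ccl3 and Ccl4 correlated at 0.606, below most of these. Ccl12 had no close partner among the members, its highest correlation being 0.306, with Ccl7. Like genes were sought among the tested genes, leaving out the members, predicted genes, small RNA genes and immunoglobulin or T cell receptor segments. By the same measure the most alike were Mmp19 (0.950) and Anxa2 (0.935) for Ccl6 and Anxa2 (0.952) and Mmp19 (0.934) for Ccl9. For Ccl2 and Ccl7 it was Pxk (0.909 and 0.923), for Ccl8 Armc9 (0.944), Tmem140 (0.941) and Pdgfc (0.938), and for Ccl5 Matk (0.946), H2-Q5 (0.945) and Lrrc32 (0.937). For Ccl24 they were Klf9 (0.888), Hk1 (0.850) and Alox15 (0.842), for Ccl12 Pdzd11 (0.864), for Ccl3 Tab2 (0.871) and for Ccl4 Lpar6 (0.841). Without the untimed groups those of Ccl24 were 0.866, 0.731 and 0.709.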

How the data were processed

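Arrays were Affymetrix Mouse Gene 1.0 ST. Per the submitters' processing notes, the authors used Affymetrix Power Tools and RMA; their versions and the build were not stated. The deposited values are intensities on a linear scale for 24922 probe sets, of which 21425 have 1 gene symbol, 1399 several and 2098 none. Here log2 was taken and 1 mean per group (18 groups from the titles, 45 arrays, 27 residual degrees of freedom) was fitted in limma 3.58.1 (R 4.3.3) with an intensity trend and Benjamini-Hochberg adjustment within each comparison. Of 19752 genes, 11074 reached the filter. Members, lists and tests were chosen with earlier results of these data known. All members, every tested receptor and, per other list, up to 4 genes of smallest p or defining role may be named, and the 3 genes most alike per member. Other CC ligands were named after their values were seen. Same-numbered samples paired by their deviations only for the subsets of the 8 h DTR- mice (correlations 0.480, 0.527 and 0.583). The fit was tested on simulated data. Motifs were searched in Python.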

Additional observations from a re-analysis of the deposited data

Results flagged for a closer look

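The MHCII difference of Ccl8 changed from day 1 to day 4 in DTR- mice by -1.377 (log2), because Ccl8 returned by day 4 in MHCII- cells and not in MHCII+ cells; this is a tested difference of effects (adjusted p = 0.0365). The call was lost without any 1 of 7 of its 8 arrays (adjusted p 0.0937 to 0.277) and without the filter on dim genes (adjusted p = 0.0553).

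The genotype effect in MHCII+ cells at day 7 differed between the untimed set and the timed sets. These tests were added after seeing the data; 4 of 10 members were called against the 24 h set (7.52% of all genes) and 5 of 10 against the 8 h set (7.90%). For Ccl24 the effect was larger by 2.316 than in the 24 h set and by 3.006 than in the 8 h set. For Ccl5 it was larger by 2.246 and 2.338. For Ccl3 it was lower, by -0.682 and -0.577. For Ccl9 it was larger by 0.38 and 0.43, and for Ccl6 by 0.476 against the 8 h set. The untimed set differs from the 24 h set in age and DT label and from the 8 h set also in the gate, and the part of these cannot be told apart from the difference between sets; its labelled gate is that of the 24 h set. The calls of Ccl24, Ccl5 and Ccl3 were kept without any 1 array. Those of Ccl9 were lost without 4 of 10 arrays against 24 h (0.343 to 0.385, adjusted p 0.0958 to 0.162) and without untimed DTR+ replicate 1 against 8 h (0.393, adjusted p = 0.0829). That of Ccl6 was lost without untimed DTR+ replicate 1 (0.435) or DTR- replicate 2 (0.436). Against 24 h limma also lost Ccl9 without the filter (adjusted p = 0.0759) and without the intensity trend (0.0623). The same held with arrays quantile-normalized again (0.114) and in a fit on the compared groups only (0.0631). Against 8 h, quantile normalization lost Ccl9 (adjusted p = 0.0759) and Ccl6 (0.0576), and the replicate block lost Ccl6 (0.0803).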

How the results depend on the processing

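With 10 members, the main counts were 6 calls over 7 genotype comparisons, 12 over 8 subset comparisons, 33 over 8 day comparisons, 1 over 8 planned differences of effects and 9 over 2 added ones, against 1.73%, 5.33%, 15.6%, 0.745% and 7.71% of all genes. Among 51 calls for genotype, subset and day, 21 were kept without any 1 array and 30 were lost at least once; no called value changed sign under any setting. With each array left out in turn the counts ran from 3 to 7, 10 to 13, 25 to 33, 0 to 3 and 6 to 10. Where an array was left out of a group of 2, the other is assumed to vary like the remaining groups. With array quality weights the genotype calls rose to 18 and the planned differences of effects to 10; the added calls were 5 in the 24 h and 6 in the 8 h MHCII- comparison and Ccl4 in the untimed set, and this setting also called 1759 higher and 2398 lower genes of all in the 24 h MHCII- comparison against 1 gene in all without it. Array quality weights also added day and subset calls. From day 4 to the 24 h set in MHCII- cells they called 6 members (36.1% of all genes), against 0 without them. They called Ccl5 between the subsets at day 1 in both genotypes, and lost Ccl3 and Ccl24 between the 8 h DTR+ subsets. The cause of these changes was not tested. Differences of effects were 0 without the filter on dim genes (more genes tested) and 2 with arrays quantile-normalized again, for which the cause was not tested. With the replicate block the counts were 6, 13, 31, 1 and 8, and no member's call changed between the 8 h DTR- subsets, whose numbers paired. A pseudocount of 32, no intensity trend, centring on array medians and a fit on the compared groups only kept every count within 1.5 times. With 2 to 4 arrays a group, an adjusted p that missed the threshold does not show that a member did not change.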
